A study of Pongo abelii with 8 samples.

Results

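Collagen genes were taken as every gene whose symbol in the platform annotation is COL, a type number, the letter A and a chain number, on probe sets with exactly 1 symbol. This gave 73 of 22277 probe sets and 32 of 11963 genes. Each gene is represented by its probe set with the highest mean over the 8 arrays, and the genes were sorted by the structure of the protein into fibrillar (9 genes), basement membrane type IV (6), FACIT (7, chains that attach to fibrils), beaded filament type VI (3), short-chain network (3), multiplexin (2), anchoring fibril (1) and transmembrane (1) classes. RNA came from 6 iPSC colonies and from 2 skin fibroblast cultures of 2 Sumatran orangutans, KB10973 (male, 29 years) and KB10460 (female, 43 years), with 3 colonies and 1 fibroblast culture from each animal, all labelled as healthy controls. The colonies had been made from these fibroblasts with retroviruses that carry human OCT4, SOX2, KLF4 and c-MYC, with valproic acid during reprogramming. They were grown in serum replacement medium with bFGF, whereas the fibroblasts were kept in fetal bovine serum. Each colony is 1 clone picked onto inactivated mouse embryonic fibroblasts, and no value here separates RNA of such feeder cells from that of the colony. The probes were made for human transcripts, and the effect of mismatches to orangutan RNA on the signal was not tested. Levels are compared between arrays and not between genes, except that some are set against the array median or the lower end of the scale.

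Collagens form the scaffold of the extracellular matrix. Their chains wind around each other into a rope-like helix inside the cell, are secreted, trimmed and cross-linked outside it. Fibrillar collagens build the tensile fibrils of skin, where dermal fibroblasts are the main source. Type IV collagen forms the sheet-like network of basement membranes, on which epithelia and the early embryonic epiblast rest.

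Values are log2 expression values from RMA, a normalization that equalizes the distributions of the arrays, and the median of an array lay between 3.74 and 3.82. A gene was called when its limma test (two-sided, Benjamini-Hochberg adjustment over all probe sets) gave an adjusted p under 0.05 and the fold exceeded 1.5. The cell types were checked against markers. Of 12 measured fibroblast markers 11 were called lower in the iPSCs, and the exception was THY1, which was higher (log2 fold change 2.79). All 4 measured pluripotency markers were called higher, by 5.58 to 7.16 on the log2 scale. Because the 6 colonies stem from 2 animals, the p-values reflect only how much these cultures vary. In bulk RNA, fewer cells that make a collagen and less of its RNA per cell cannot be told apart.

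The called collagen genes were mostly lower in the iPSCs than in the fibroblasts. Of the 32 genes, 15 were called lower in the iPSCs, against a background of 11.5% of all genes, 2 were called higher, against 15.2%, and 15 were not called. A called fall of more than 4-fold was found for 10 of the 32, against 3.36% of all genes. Each of the 6 iPSC arrays lay below both fibroblast arrays in 15 of the 32 genes, against 19.7% of all genes. These were the same 15 that were called lower, and a call favours this pattern, so it adds little to the calls. All 6 lay above both fibroblast arrays for COL4A6, COL18A1 and COL9A3, against 23.6% of all genes. The median log2 fold change was -0.20 over the collagen genes and 0.00 over all genes. It was -1.54 in the fibrillar class (6 of 9 lower), -3.65 in the type VI class (3 of 3 lower) and 0.14 in the type IV class (1 of 6 higher and none lower). Of the 17 genes outside the fibrillar and type IV classes, 9 were lower and 1 was higher. Of the 32 genes, 15 had a mean log2 value under 5 in both cell types, near the lower end of the scale, where folds are understated. The same held for 6930 of all 11963 genes. Among genes at 5 or more in a cell type, 13 of 17 collagen genes were called lower and 1 higher. Over all genes at that level, 1138 of 5033 were called lower and 1570 higher.

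**Figure D1:**
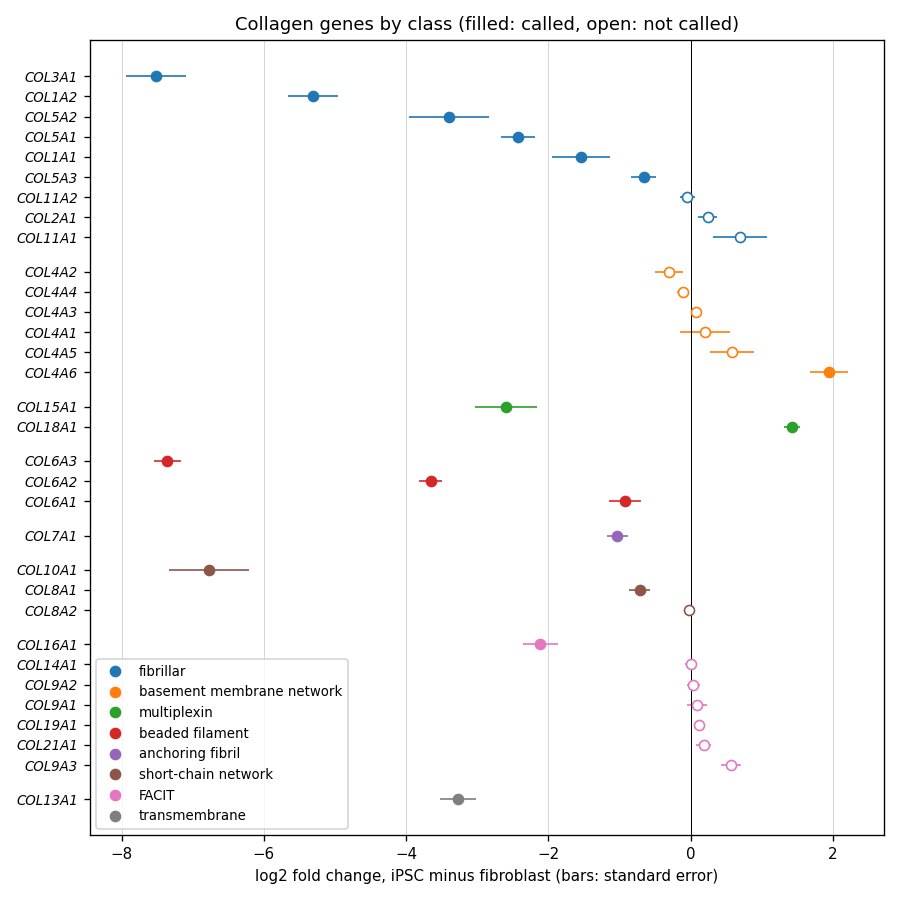
Log2 fold change between iPSCs and fibroblasts (horizontal axis, iPSC minus fibroblast, bars show the standard error) of the 32 collagen genes, coloured by class, with filled points for called genes. The points farthest to the left are COL3A1 at -7.52, COL6A3 at -7.36 and COL10A1 at -6.77, and the type IV genes lie between -0.30 and 0.59 apart from COL4A6 at 1.94.

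Among the fibrillar genes the chains of types I, III and V fell. COL3A1, which forms the thin fibrils of young and elastic skin, had log2 values of 2.97 to 4.33 (median 3.70) in the 6 iPSC colonies, against 11.88 in the KB10973 and 10.63 in the KB10460 fibroblasts. COL1A2, a chain of type I collagen, the bulk of dermal fibrils, had 6.65 to 8.26 (median 7.65) in the iPSCs, against 12.95 and 12.83 in these fibroblasts. The colonies thus lay far below both fibroblast cultures for either gene, but for COL1A2 they stayed well above the array median. In limma the log2 fold change was -7.52 for COL3A1 (standard error 0.42, adjusted p = 1.7e-06 from limma) and -5.31 for COL1A2 (standard error 0.35, adjusted p = 4.5e-06). Without the KB10973 fibroblast array the COL3A1 value was -6.89, and without the KB10460 array it was -8.15.

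Type V chains start and limit the diameter of type I fibrils. COL5A1 had 5.24 to 5.84 (median 5.69) in the iPSCs, against 8.55 in the KB10973 and 7.59 in the KB10460 fibroblasts. COL5A2 had 4.28 to 6.56 (median 4.79) in the iPSCs, against 9.03 in the KB10973 and 7.73 in the KB10460 fibroblasts. For both chains no colony reached the level of a fibroblast culture, although KB10460 colony 2 stood apart for COL5A2, at 6.56 where the next colony was at 5.01. The log2 fold change was -2.43 for COL5A1 (standard error 0.24, adjusted p = 6.2e-05 from limma) and -3.39 for COL5A2 (standard error 0.56, adjusted p = 0.0015). COL5A2 was at -2.75 without the KB10973 fibroblasts and at -4.04 without the KB10460 fibroblasts. COL5A3, a minor type V chain, had 3.92 to 4.15 (median 4.07) in the iPSCs, against 5.12 in the KB10973 and 4.32 in the KB10460 fibroblasts, and a small called fall (log2 fold change -0.66). Its call ended without the KB10973 fibroblast array (-0.26, adjusted p = 0.14 from limma).

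COL1A1, the other chain of type I collagen, had 6.0 to 6.89 (median 6.51) in the iPSCs, against 8.81 in the KB10973 and 7.21 in the KB10460 fibroblasts. The highest colonies came close to the KB10460 fibroblasts without overlapping them. It fell by 1.54 on the log2 scale (limma adjusted p = 0.019, standard error 0.41). Leaving out the KB10460 fibroblasts gave -2.34. Leaving out those of KB10973 gave -0.74, which was not called (adjusted p = 0.19). COL1A1 has 4 probe sets, of which 2 were called lower (-1.54 and -1.03) and 2 were not called (-0.04 and -0.28). The cartilage fibril genes were not called. COL2A1 had a log2 fold change of 0.24, COL11A2 of -0.04 and COL11A1 of 0.69 (95% confidence interval -0.16 to 1.55), and the iPSC and fibroblast arrays overlapped for all of them.

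**Figure D2:**
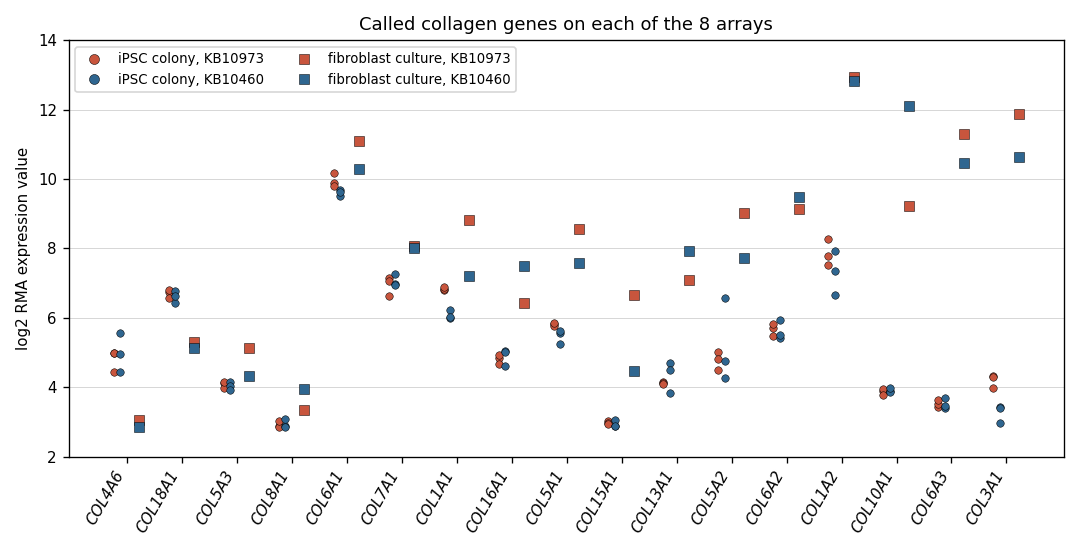
Log2 RMA expression values (vertical axis) of the 17 called collagen genes, with circles for the 6 iPSC colonies left of squares for the 2 fibroblast cultures, coloured by donor. The circles lie above the squares for COL4A6 and COL18A1 and below them for all the others, and the 2 squares are far apart for COL10A1 and COL15A1.

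Of the 6 type IV genes 1 was called higher in the iPSCs, against 15.2% of all genes, and none was called lower, against 11.5%. The other 5 were not called. With so few genes these counts are near the shares over all genes. In 4 of the 6 the mean log2 value was under 5 in both cell types. COL4A1 and COL4A2 encode the chains found in nearly every basement membrane. COL4A1 had 8.20 to 9.03 (median 8.77) in the iPSCs, against 9.23 in the KB10973 and 7.75 in the KB10460 fibroblasts. COL4A2 had 7.49 to 8.07 (median 7.85) in the iPSCs, against 8.38 in the KB10973 and 7.83 in the KB10460 fibroblasts. All 6 COL4A1 values of the colonies fell between those of the fibroblast cultures. The difference in log2 was 0.20 for COL4A1 (95% confidence interval -0.60 to 1.01, adjusted p = 0.75 from limma) and -0.30 for COL4A2 (-0.75 to 0.15, adjusted p = 0.33). The direction for COL4A1 depended on the fibroblast culture. It was at -0.54 without the KB10460 fibroblasts (adjusted p = 0.27), and was called higher at 0.94 without the KB10973 fibroblasts (adjusted p = 0.043).

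COL4A6, a chain of certain epithelial basement membranes, was the type IV gene called higher. It had 4.42 to 5.56 (median 4.96) in the iPSCs, against 3.05 in the KB10973 and 2.85 in the KB10460 fibroblasts. The groups did not overlap, although all values lie low on the scale and the gene has other probe sets that were not called (0.39 and -0.05). At its main probe set it rose by 1.94 on the log2 scale (standard error 0.27, adjusted p = 0.00049 from limma). COL4A5, which assembles with COL4A6, had 4.36 to 5.77 (median 4.80) in the iPSCs, against 4.25 in the KB10973 and 4.37 in the KB10460 fibroblasts. Its colonies overlapped the fibroblasts only at the lowest value, and its log2 fold change of 0.59 was not called (95% confidence interval -0.12 to 1.29, adjusted p = 0.21). COL4A3 and COL4A4, chains of kidney and lung basement membranes, had means between 2.86 and 3.26 in both cell types and were not called. Endoderm makes much type IV collagen, and of 7 measured endoderm markers 3 were called higher in the iPSCs, against 15.2% of all genes. The summed log2 values of the list ran from 32.2 to 42.2 over the colonies and from 25.5 to 27.0 over the fibroblasts, with GATA6 at 5.88 to 9.03 in the iPSCs, while SOX17 and GATA4 were not called. Markers of other cells were called higher too, against the same 15.2%. Of 6 measured endothelial markers 2 were higher and 1 was lower. Of 6 measured smooth muscle markers 2 were higher and none was lower. The part of any of these cells in the type IV values was not tested.

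The multiplexins, which sit at basement membranes and carry a domain that can be released, went in opposite directions. COL18A1, the source of endostatin, had 6.41 to 6.80 (median 6.68) in the iPSCs, against 5.30 in the KB10973 and 5.14 in the KB10460 fibroblasts. COL15A1, the source of restin, had 2.87 to 3.05 (median 2.96) in the iPSCs, against 6.65 in the KB10973 and 4.46 in the KB10460 fibroblasts. The colonies were tightly grouped for both genes, on opposite sides of the fibroblasts. COL18A1 rose by 1.43 on the log2 scale (standard error 0.11, adjusted p = 1.6e-05 from limma). Its second probe set rose by 1.73. COL15A1 fell by 2.60 (standard error 0.43, adjusted p = 0.0015 from limma). This value was -1.50 without the KB10973 and -3.69 without the KB10460 fibroblast array, and the call ended when the colonies were averaged within each donor (adjusted p = 0.11).

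Type VI collagen forms beaded filaments that link cells to the surrounding matrix, and its chains are assembled together. All its measured chains were called lower. COL6A3 had 3.40 to 3.70 (median 3.49) in the iPSCs, against 11.30 in the KB10973 and 10.46 in the KB10460 fibroblasts. COL6A2 had 5.40 to 5.93 (median 5.60) in the iPSCs, against 9.12 in the KB10973 and 9.47 in the KB10460 fibroblasts. COL6A1 had 9.50 to 10.17 (median 9.73) in the iPSCs, against 11.10 in the KB10973 and 10.28 in the KB10460 fibroblasts. The gap between the cell types was therefore wide for COL6A3 and COL6A2 and narrow for COL6A1, where the highest colony almost reached the KB10460 fibroblasts. Log2 fold changes were -7.36 for COL6A3 (standard error 0.19, adjusted p = 1.0e-08 from limma), -3.65 for COL6A2 (standard error 0.16, adjusted p = 3.5e-07) and -0.92 for COL6A1 (standard error 0.22, adjusted p = 0.012). The second probe set of COL6A2 was also called lower, at -0.96. COL6A1 has 8 probe sets, of which 2 were called lower and 6 were not called. Its call also ended without the KB10973 fibroblast array (-0.51, adjusted p = 0.12). No test compared these chains with each other.

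COL7A1, which forms the anchoring fibrils that fasten epidermis to dermis, kept a clear signal in the colonies at its main probe set. It had 6.62 to 7.27 (median 7.01) in the iPSCs, against 8.06 in the KB10973 and 8.0 in the KB10460 fibroblasts. COL13A1, a transmembrane collagen of cell adhesion sites, had 3.83 to 4.70 (median 4.14) in the iPSCs, against 7.08 in the KB10973 and 7.93 in the KB10460 fibroblasts. COL16A1, the only FACIT gene called, had 4.61 to 5.04 (median 4.88) in the iPSCs, against 6.42 in the KB10973 and 7.5 in the KB10460 fibroblasts. No colony overlapped a fibroblast culture in these 3 genes. Log2 fold changes were -1.03 for COL7A1 (adjusted p = 0.00070 from limma), -3.27 for COL13A1 (adjusted p = 1.6e-05) and -2.11 for COL16A1 (adjusted p = 0.00017). The other probe set of COL7A1, with a mean of 5.13 in the iPSCs, fell by 2.40. The other probe sets of COL13A1 were not called (-0.45, adjusted p = 0.0035 from limma, and -0.58, adjusted p = 0.052). Both stayed under 1.5-fold, and in both every colony lay below both fibroblast cultures. The remaining 6 FACIT genes had log2 fold changes between 0.00 and 0.57. The largest of these, in the cartilage gene COL9A3, had an adjusted p of 0.013 from limma but stayed just under the fold threshold, at 1.48-fold, and all 6 colonies lay above both fibroblast cultures.

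The short-chain collagen COL10A1 gave one of the widest gaps of all collagen genes. It is best known from hypertrophic cartilage. It had 3.77 to 3.98 (median 3.90) in the iPSCs, against 9.22 in the KB10973 and 12.10 in the KB10460 fibroblasts. The colonies were close to the array median and the fibroblast cultures far above it, and these differed by 2.88 between the animals. The fall was -6.77 on the log2 scale (standard error 0.56, adjusted p = 2.1e-05 from limma), and -5.90 at the other probe set. Of 6 measured cartilage markers only SOX9 was called, lower in the iPSCs (-0.77). Its value was 4.79 in the KB10973 and 3.69 in the KB10460 fibroblasts, the reverse order of COL10A1. The markers all lay low on the scale, with means of 2.82 to 3.96 in the iPSCs and 2.84 to 4.24 in the fibroblasts. The summed log2 values of the list ran from 19.6 to 20.5 over the colonies and from 20.7 to 21.5 over the fibroblasts. The part of cartilage cells in the COL10A1 values was not tested. COL8A1, a short-chain collagen of vessel walls and of the basement membrane of the corneal endothelium, had 2.86 to 3.08 (median 2.88) in the iPSCs, against 3.34 in the KB10973 and 3.95 in the KB10460 fibroblasts. All its values are near background, and its called fall of 0.72 on the log2 scale was no longer called without the KB10460 fibroblast array (-0.41). COL8A2 was not called (-0.02).

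Probe sets of the same gene often gave different folds. Of 22 collagen genes with more than 1 probe set, 6 had both called and uncalled probe sets, namely COL1A1, COL3A1, COL4A6, COL6A1, COL8A1 and COL13A1. In none were probe sets called in opposite directions. For COL3A1, 3 probe sets fell by 5.14 to 7.52 on the log2 scale, and a probe set with means of 3.08 in the iPSCs and 3.10 in the fibroblasts was not called (-0.02). Choosing the probe set with the lowest mean for each gene left 11 collagen genes lower and 1 higher. Over all 73 probe sets, 27 were called lower, against 9.6% of all probe sets, and 3 higher, against 12.2%. Names of probe sets that end in _x_at or _s_at mark probes that can match other transcripts, which applies to several collagen probe sets.

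**Figure D3:**
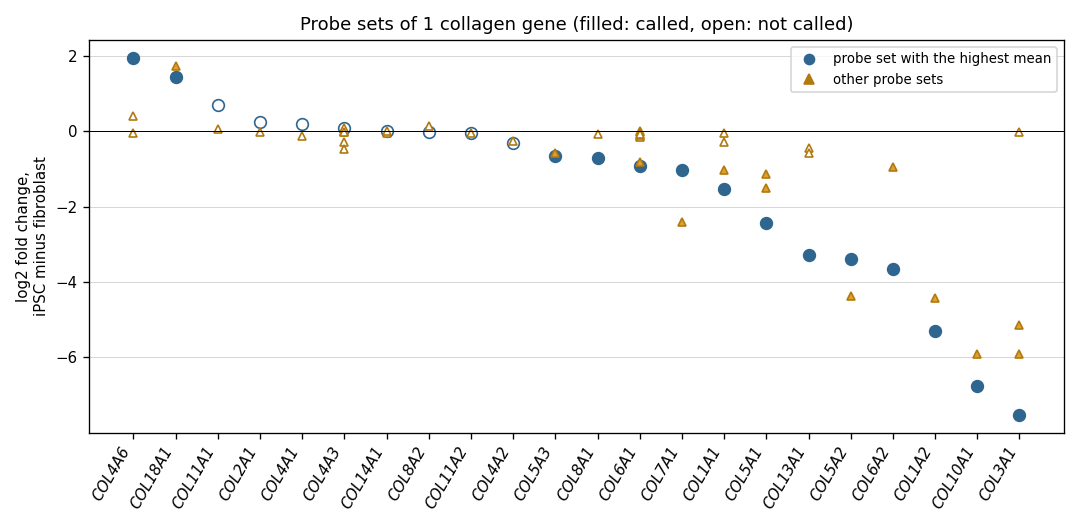
Log2 fold change (vertical axis, iPSC minus fibroblast) of every probe set of the 22 collagen genes that have more than 1, with circles for the probe set with the highest mean, triangles for the others, and filled symbols for called ones. COL3A1 spans from -7.52 to -0.02, and no gene has called probe sets on both sides of 0.

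Several collagen genes lie side by side in the genome. In the gene order of the Sumatran orangutan RefSeq assembly, where 31 of the 32 genes were found by symbol, 6 pairs had no other protein-coding gene between them. In the pair COL3A1 and COL5A2 both genes fell (-7.52 and -3.39 on the log2 scale), as they did in COL6A1 and COL6A2 (-0.92 and -3.65). COL4A1 and COL4A2 were both not called (0.20 and -0.30). The same holds for COL4A4 and COL4A3 (-0.10 and 0.08) and for COL19A1 and COL9A1 (0.12 and 0.09). Only in COL4A6 and COL4A5 was 1 gene called and its neighbour not (1.94 and 0.59).

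Some collagen genes had different levels in the fibroblast cultures of the animals. All 6 called fibrillar genes were higher in the KB10973 than in the KB10460 fibroblasts, by 0.12 for COL1A2 to 1.60 for COL1A1 on the log2 scale. Of all 15 lower collagen genes, 10 were higher in the KB10973 fibroblasts and 5 in the KB10460 fibroblasts. Over all genes, 5907 of 11963 were higher in the KB10973 fibroblasts. Among genes with a mean log2 value of 5 or more in a cell type, 2863 of 5033 were. With 1 fibroblast array per animal these differences have no replicate check and no test. Between the colonies of KB10973 and those of KB10460, 1 of the 32 genes was called by limma, against 0.142% of all genes, and 8 had an unadjusted p under 0.05, against 11.8% of all genes. The called gene was COL1A1, with 6.81, 6.83 and 6.89 in the KB10973 colonies and 6.22, 6.0 and 6.03 in the KB10460 colonies. The groups did not overlap, and the difference was 0.76 on the log2 scale (standard error 0.09, adjusted p = 0.035 from limma). It had the same direction in the fibroblasts (8.81 in KB10973 and 7.21 in KB10460). The call ended when any single colony other than KB10460 colony 1 was left out (adjusted p between 0.076 and 0.22) while the difference stayed between 0.72 and 0.83. COL3A1 had the same direction, with 4.33, 3.98 and 4.30 in the KB10973 colonies and 3.43, 3.40 and 2.97 in the KB10460 colonies, but was not called (0.94, adjusted p = 0.087).

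The change from fibroblast to iPSC differed between the animals for 2 of the 32 genes by limma, against 3.42% of all genes. With so few genes this count is near that share. COL10A1 changed by -5.35 in KB10973 and by -8.19 in KB10460, a difference of 2.84 (standard error 0.16, adjusted p = 0.00024). COL15A1 changed by -3.67 in KB10973 and by -1.53 in KB10460, a difference of -2.14 (standard error 0.17, adjusted p = 0.0010). In both genes the colonies of the animals were alike, with means of 3.87 in KB10973 and 3.91 in KB10460 for COL10A1 and of 2.98 and 2.93 for COL15A1, so these differences lie in the fibroblast arrays. COL1A1 was not called (-0.84, adjusted p = 0.051), although its second called probe set was (-1.28, adjusted p = 0.024). Of the COL3A1 probe sets, the main one was not called (-0.32), and 2 others were (-2.58 and -1.71). The test assumes that a lone fibroblast array varies like a colony, which cannot be checked here.

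**Figure D4:**
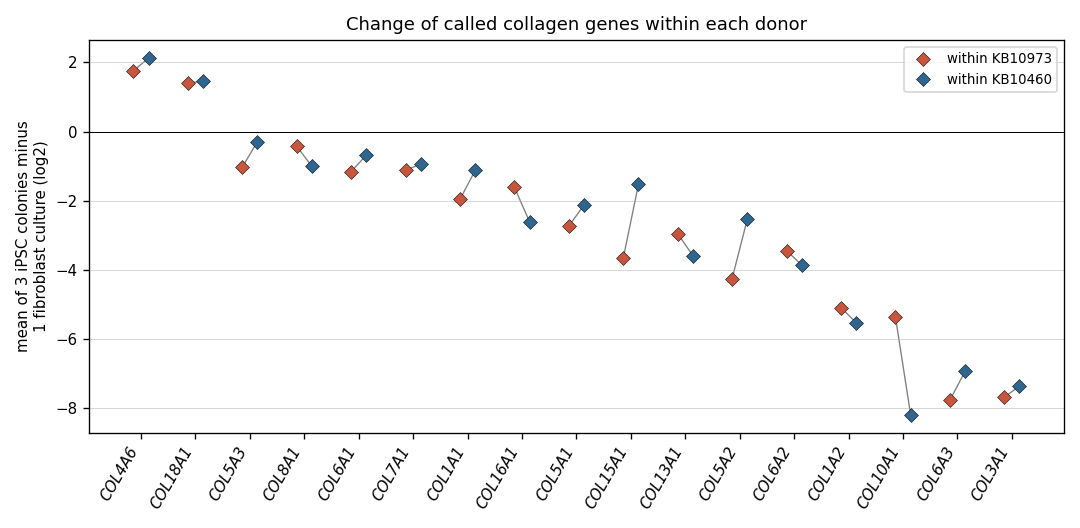
Change of the 17 called collagen genes within each donor (vertical axis, mean of the 3 iPSC colonies minus the fibroblast culture, log2), with lines that join the donors. The lines are longest for COL10A1 (-5.35 in KB10973 and -8.19 in KB10460) and COL15A1 (-3.67 and -1.53).

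Many genes that make collagen were lower in the iPSCs as well. Of 34 measured genes for chain modification and folding, secretion and propeptide cleavage, and cross-linking, 18 were called lower in the iPSCs, against 11.5% of all genes, 1 was called higher and 15 were not called, with a median log2 fold change of -0.81. Of the 16 genes that modify and fold the chains, 9 were lower. P4HA2, a subunit of the enzyme that hydroxylates prolines, had 5.0 to 5.36 (median 5.06) in the iPSCs, against 7.12 in the KB10973 and 8.54 in the KB10460 fibroblasts, a log2 fold change of -2.70. PLOD2, a lysyl hydroxylase that prepares cross-links of the chain ends, fell by 2.55 on the log2 scale, and PLOD3, which also adds sugars to the chains, had a log2 fold change of -1.83. P3H2, a prolyl 3-hydroxylase that acts on type IV collagen, was the gene that rose. It had 4.83 to 7.18 (median 6.39) in the iPSCs, against 3.57 in the KB10973 and 3.33 in the KB10460 fibroblasts. No colony overlapped the fibroblasts, and the log2 fold change was 2.72 (standard error 0.51, adjusted p = 0.0032 from limma). Its relatives P3H1, which acts on fibrillar collagens, and P3H3 were called lower (-1.58 and -0.70). The collagen chaperone gene SERPINH1, which encodes HSP47, had 9.49 to 10.08 (median 10.0) in the iPSCs, against 9.34 in the KB10973 and 9.56 in the KB10460 fibroblasts. Its log2 fold change of 0.47 had an adjusted p of 0.044 from limma but did not reach 1.5-fold.

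Of 14 genes of secretion and propeptide cleavage 5 were lower and none was higher. PCOLCE, which enhances removal of the C-terminal propeptide of fibrillar collagens, had 4.97 to 5.5 (median 5.11) in the iPSCs, against 9.35 in the KB10973 and 8.87 in the KB10460 fibroblasts. It fell by 3.93 on the log2 scale (standard error 0.17, adjusted p = 2.7e-07 from limma), with no overlap. CREB3L1, a transcription factor that activates type I collagen in mouse bone, was lower (log2 fold change -1.95), as were its relative CREB3L2 (-1.45) and SEC24D (-1.49), of the coat of secretory vesicles. Other probe sets of CREB3L1 and SEC24D, those with the lowest mean, were not called (0.08 and 0.09). The proteinase gene BMP1, which cleaves that propeptide, was not called (-0.41), with an adjusted p of 0.022 from limma but a change under 1.5-fold. The 4 measured cross-linking genes were called lower at their main probe sets, and LOX, TGM2 and LOXL2 were not called at the probe sets of the lowest mean (-0.18, -0.27 and -0.07). The lysyl oxidase gene LOX had 3.13 to 3.72 (median 3.35) in the iPSCs, against 7.05 in the KB10973 and 8.15 in the KB10460 fibroblasts. The transglutaminase gene TGM2 had 3.33 to 3.76 (median 3.45) in the iPSCs, against 6.35 in the KB10973 and 8.86 in the KB10460 fibroblasts. The colonies lay at least 2 log2 units below the fibroblasts for both, with log2 fold changes of -4.23 (standard error 0.26) and -4.12 (standard error 0.50). TGM2 was at -2.87 without the KB10460 and -5.38 without the KB10973 fibroblast array, and was not called with the colonies averaged within each donor (adjusted p = 0.051 from limma). LOXL1 (-1.82) and LOXL2 (-1.24) were called lower as well, and LOXL2 was not called without the KB10973 fibroblast array (-0.67, adjusted p = 0.069 from limma) or with averaged colonies (adjusted p = 0.15). Of 8 collagen receptor genes 4 were called lower, against 11.5% of all genes, and none was called higher, against 15.2%. ITGA2, an integrin chain that binds collagen, had a log2 fold change of -3.60, the fibrillar collagen receptor DDR2 of -2.58, the integrin chain ITGB1 of -1.74 and MRC2, an endocytic receptor for collagen, of -1.59. At their probe sets of the lowest mean ITGB1 (-0.07) and MRC2 (-0.58, just under 1.5-fold) were not called.

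**Figure D5:**
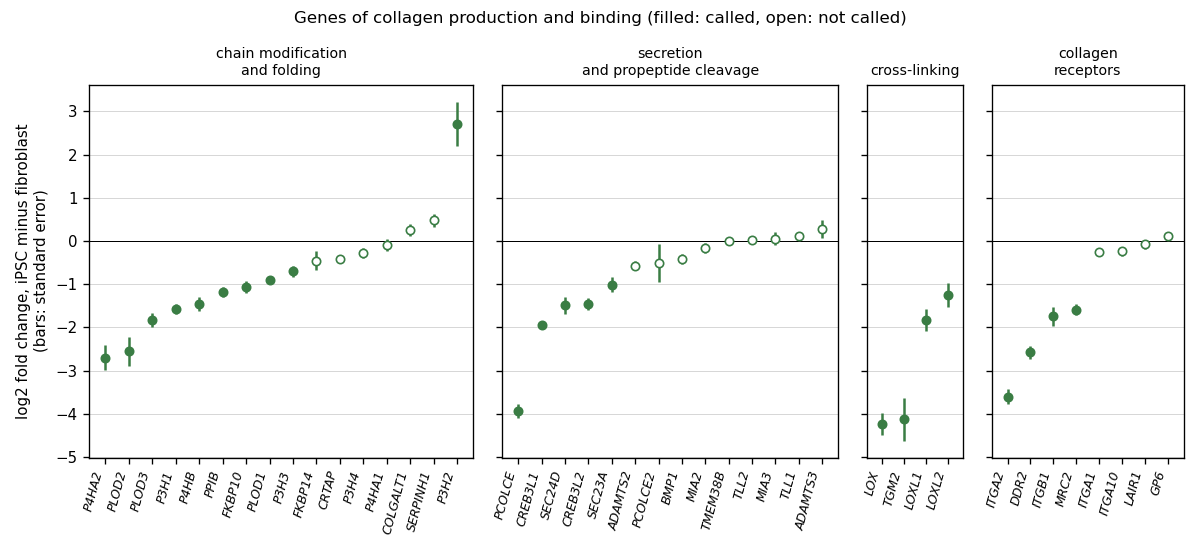
Log2 fold change between iPSCs and fibroblasts (vertical axis, iPSC minus fibroblast, bars show the standard error) of genes for collagen modification and folding, secretion and cleavage, cross-linking and binding, ordered by size within each list, with filled points for called genes. P3H2 at 2.72 is the filled point above 0, and the 4 cross-linking genes, at their main probe sets, lie below -1.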

How the data were processed

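Biotin-labelled RNA of 8 cultures was measured on single-channel Affymetrix arrays with human probes. Using WebArray (version not given in the sources used here), the authors ran RMA and deposited the resulting log2 values of 22277 probe sets. RMA equalizes the arrays, which would remove a change shared by most transcripts. The platform annotation gave 1 symbol to 19070 probe sets. No column lacked a sample (0 left over).

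Linear models of limma (version 3.58.1, under R 4.3.3, with eBayes moderation) compared iPSCs with fibroblasts over 8 arrays without a block, the iPSCs of KB10973 with those of KB10460 over 6 arrays, and the change between the animals over 4 groups. These fits were run on simulated data in which every array, fibroblasts included, varied independently like the iPSC arrays. That setting leaves out shared donors and fibroblast cultures that vary more than colonies, so it does not test the fits for these. Fibroblasts and iPSCs of a donor share an animal, which pairs them. Across probe sets, KB10973 minus KB10460 in iPSCs and in fibroblasts correlated at r = 0.02. Of the 22277 probe sets, 14820 had means under 5 in both cell types, so this r says little about the pairing of the collagen genes. The collagen genes, their classes and the gene lists were chosen with earlier results of these data known. Collagen genes are named with full values when called with a change over 4-fold, when called higher, or when their probe sets disagree. Up to 4 called genes with the largest change per list of collagen-making and receptor genes are named, some with the fold change only. COL5A3, COL7A1, COL9A3, the remaining type IV genes, P3H1, P3H3, SERPINH1, BMP1, SOX17 and GATA4 fall outside this rule and were named after their values were seen. COL2A1, COL8A2, COL9A1, COL11A1, COL11A2 and COL19A1 are also named outside this rule. The number of arrays limits the precision. The alternatives were a block, trend and robust moderation, array weights, averaged colonies, other normalizations, a filter on low values, other thresholds, other probe sets per gene, and leaving out each array.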

Additional observations from a re-analysis of the deposited data

Results flagged for a closer look

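In 4 of the 44 collagen, collagen-making and receptor genes with a mean log2 value of 5 or more in a cell type, 1 colony stood apart from the other 5, where chance flags about 1 gene in 20. That rate holds for colonies that vary as 1 group, whereas these come from different animals. The share over all genes is not given, so the count is not shown to be unusual. For COL5A2 it was KB10460 colony 2, at 6.56 with the next colony at 5.01 (gap 0.679 of the range). For SEC24D it was the same colony, at 4.90 with the next at 4.32 (gap 0.683 of the range). SERPINH1 was low in KB10460 colony 3, at 9.49 with the next at 9.96 (gap 0.795 of the range), and TGM2 was highest in KB10973 colony 2, at 3.76 with the next at 3.47 (gap 0.663 of the range).

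The change from fibroblast to iPSC differed between the animals, KB10973 minus KB10460, for 4 of all 74 collagen, collagen-making and receptor genes by limma, against 3.42% of all genes. With so few genes this count is near that share. The log2 difference was 2.84 for COL10A1, -2.14 for COL15A1, 2.58 for TGM2 and 1.21 for P4HA2. With 1 fibroblast array per animal, the test takes its spread from the colonies alone. For COL10A1, COL15A1 and TGM2 all colonies lie under 5 on the log2 scale. Whether the fibroblast cultures vary as little cannot be checked here. COL10A1, TGM2 and P4HA2 were lower in the KB10973 fibroblasts, at 9.22, 6.35 and 7.12, than in the KB10460 fibroblasts, at 12.10, 8.86 and 8.54. COL15A1 was higher in the KB10973 fibroblasts, at 6.65, than in the KB10460 fibroblasts, at 4.46.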

How the results depend on the processing

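The count of lower collagen genes (15) lay between 10, with colonies averaged within donor, and 15 over 21 settings, and between 12 and 15 without single arrays. With donor as a replicate block 15 were lower and 2 higher, and 4952 probe sets were called. The block moved the adjusted p of single collagen genes in both directions, down for COL1A1 and up for COL7A1, for instance. The 2 higher genes became 1 with the filter on low values, which removes COL4A6, and 1 with the probe set of the lowest mean, and 2 to 3 without single arrays. Of the 17 called collagen genes none changed direction, 9 kept their call in every setting and 8 lost it in at least 1. Averaging colonies within donor, which leaves 2 arrays against 2, ended the calls of COL1A1, COL5A3, COL6A1, COL8A1 and COL15A1 (adjusted p = 0.11 to 0.24 from limma). COL4A1, not called, was at -0.11 with the probe set of the lowest mean and between -0.54 and 0.94 without single arrays.

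The 18 lower collagen-making genes became 11 with the probe set of the lowest mean, where the log2 fold changes of CREB3L1 and SEC24D turned to 0.0781 and 0.0929 and LOX, TGM2 and LOXL2 lost their calls, 14 with colonies averaged within donor, where TGM2 and LOXL2 lost theirs, and 18 to 19 without single arrays. The 1 higher gene became 2 with no fold threshold, and stayed 1 without single arrays. All probe sets called numbered 4850, 3061 at a fold over 2, and 4241 to 5021 without single arrays.

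Between the donors' colonies the 1 called collagen gene became 0 with the colony number as a replicate block, median centring, the filter on low values, a fold over 2, an FDR of 0.01, and KB10973 colonies 1 and 2 averaged, and 0 to 1 without single colonies (6 to 9 of 32 had an unadjusted p under 0.05 in those settings). It became 2, with COL3A1, with trend and robust moderation. Colony numbers share only a number. The difference of the change was called for 2 to 3 genes without single colonies, COL1A1 being added without KB10460 colony 1, and for 3 after quantile normalization. The averaging of KB10973 colonies 1 and 2 and all settings of the collagen-making genes and of single genes' donor differences were chosen after seeing the data. The cause of these shifts was not tested.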
